A study of Mus musculus with 6 samples.

Results

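The 36 aminoacyl-tRNA synthetase genes described here were picked by symbol from the 47937 genes of the expression table, 20 for enzymes of the cytosol and 16 for enzymes of the mitochondrion, whose symbols end in 2. All 36 had a mean normalized count of at least 10 and were tested. The study sequenced polyadenylated RNA of haematopoietic stem cells (HSCs) taken from the bone marrow of mice that were wild type, of strain C57BL/6 and 8 weeks old, and that the protocol describes as male. Bone marrow was depleted of lineage-positive cells, and the cells sorted were LSK+ (lineage-negative, Sca-1 and Kit positive), CD34, Flt3 and CD48 negative and Slam1 positive. Sorting on the receptor CD93 gave a positive fraction (CD93pos) and a negative one (CD93neg), with 3 libraries each and no treatment in either group. The protocol calls the 3 libraries biological replicates without naming the animals behind each, so p-values measure the spread between these libraries.

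An aminoacyl-tRNA synthetase joins an amino acid to the tRNAs that carry its anticodons, the step at which the genetic code is read into protein. Class I and class II enzymes have unrelated catalytic folds, and several cytosolic enzymes are held in a multisynthetase complex on the scaffold proteins Aimp1, Aimp2 and Eef1e1. Mitochondria translate a few respiratory chain subunits with their own enzymes, all encoded in the nucleus, while Gars and Kars each serve both compartments. Uncharged tRNA activates the kinase Eif2ak4 (GCN2), and Atf4, which acts downstream of it, induces many synthetase genes. HSCs are known for a low rate of protein synthesis.

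Reads assigned to genes numbered 5794528 to 9509304 in the CD93pos libraries and 2832653 to 4614396 in the CD93neg libraries. CD93neg replicate 1 stood apart: it had no read for 71.0% of the 11805 tested genes, against 2.10% to 26.4% in the other 5 libraries. Results it bears on are given with and without it. CD93neg replicates 2 and 3 carried reads of other cell types. All 10 neutrophil markers lay higher in both than in any CD93pos library, summing to 12686 and 9198 CPM (reads scaled to 1000000 assigned reads) against 2.93 to 279 in CD93pos and 0 in CD93neg replicate 1. All 7 tested B lineage markers did so too, at 11111 and 34016 CPM against 73.0 to 97.6 in CD93pos and 0.353 in CD93neg replicate 1. Ly6g, which defines neutrophils, and Cd79a and Ms4a1, which define B cells, had no read in CD93pos or in CD93neg replicate 1. The 8 mast cell and basophil markers summed to 102 to 1057 CPM in CD93pos against 0 to 27.5 in CD93neg, and 16 genes of G2 and mitosis to 2447 to 2867 in CD93pos and 228 to 2262 in CD93neg. The 8 erythroid markers summed to 288 to 585 CPM in CD93pos against 15.4 to 228 in CD93neg, and the 6 stem cell markers to 2113 to 2471 in CD93pos against 2837 to 3892 in CD93neg. The 7 genes of the sort gate summed to 854 to 1376 CPM in CD93pos and 706 to 2421 in CD93neg, and DESeq2 called 0 of them. Cd93 itself, on which the groups were sorted, had a log2 fold change of 1.75 ± 2.01 by the authors' DESeq2. The sex transcripts did not match 1 sex throughout: Xist, which coats the silenced X chromosome, reached 2419 and 1143 reads in CD93neg replicates 2 and 3, and the Y-linked Ddx3y was read only in the CD93pos libraries. The split was not clean. CD93pos replicate 3 had reads for 5 of 5 sex-linked genes checked, Xist included. CD93neg replicate 1 had reads for only 1 of the 5, a single read and not of Xist. The part of these differences in the results below was not tested, and in bulk RNA fewer cells of a type and less RNA per cell cannot be told apart.

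Synthetase transcripts were present in nearly every library except CD93neg replicate 1. At least 3 reads were found for 20 of 20 cytosolic genes in each CD93pos library, but for only 6 in CD93neg replicate 1, 18 in replicate 2 and 20 in replicate 3. Of the mitochondrial enzymes, at least 3 reads were found for 16, 11 and 16 of 16 genes across CD93pos and 4, 13 and 13 across CD93neg. Thinning every library to 2832653 reads left all of these counts as they were. In CD93neg replicate 1 reads were all or nothing: 22 of the 36 genes had none, 4 had 1 or 2, and the other 10 had between 422 and 5235. Those 10 were Aars, Eprs, Gars, Kars, Sars, Wars, Fars2, Lars2, Nars2 and Tars2, against 21.5% of all tested genes with at least 3 reads in that library.

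**Figure D1:**
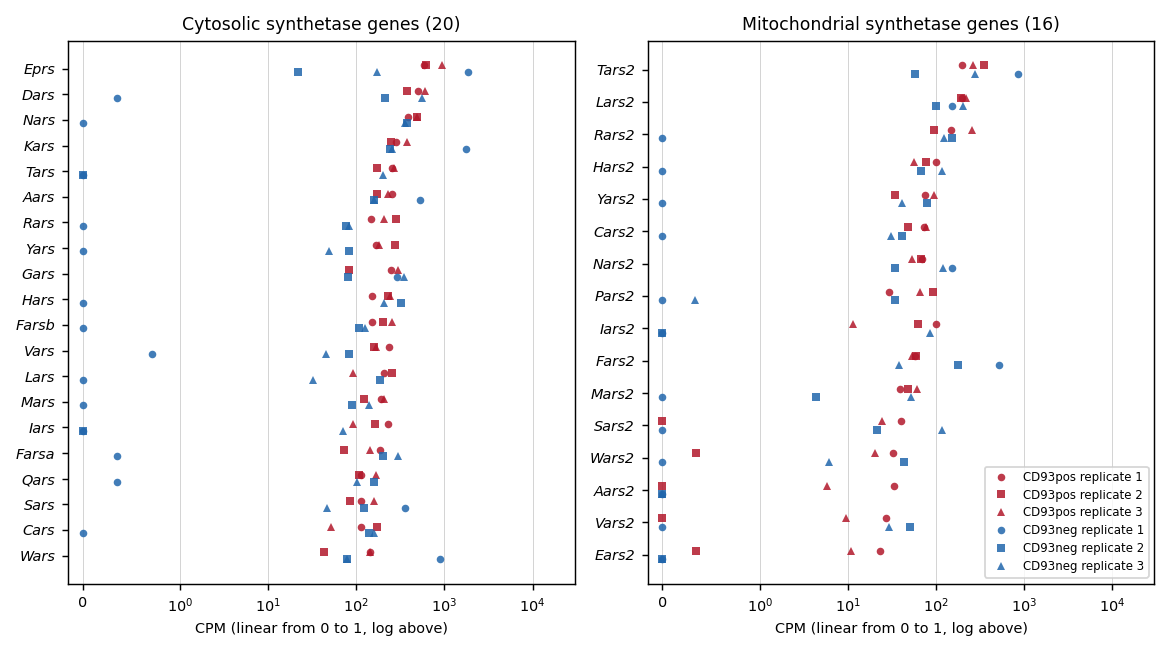
Reads of each synthetase gene in CPM, on an axis that is linear from 0 to 1 and logarithmic above, with 1 point per library (red CD93pos, blue CD93neg; circle, square and triangle for replicates 1, 2 and 3). The blue circles of CD93neg replicate 1 lie at or near 0 for 26 genes and among the highest values for several of the other 10.

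No synthetase gene passed the main test of CD93pos against CD93neg. limma called 0 of the 36 at an adjusted p under 0.05, and 0.0% of all tested genes. At an unadjusted p under 0.05 limma gave 2 synthetase genes higher in CD93pos, Iars and Ears2, where 11.8% of all tested genes were, and 0 lower, where 0.381% were. edgeR's quasi-likelihood test on the reads also called 0 of the 36 and 0.0% of all genes. DESeq2 on the same reads called 1, Ears2, higher in CD93pos, where it called 5.58% of all genes. Log2 fold changes are differences of log2(normalized count + 1), CD93pos over CD93neg. They were positive for 15 of 20 cytosolic and 12 of 16 mitochondrial genes, beside 79.9% of all tested genes. The median was 3.26 for the cytosolic and 2.70 for the mitochondrial enzymes, beside 2.36 for all tested genes. Without CD93neg replicate 1 these medians were 0.51, 0.30 and 0.43, with 16 of 20 and 10 of 16 positive beside 60.1% of all genes. The sign followed that library closely. Of the 10 genes it held, 7 had a negative log2 fold change, and of the other 26, 24 had a positive one. Without it 8 of the 10 and 18 of the 26 were positive.

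**Figure D2:**
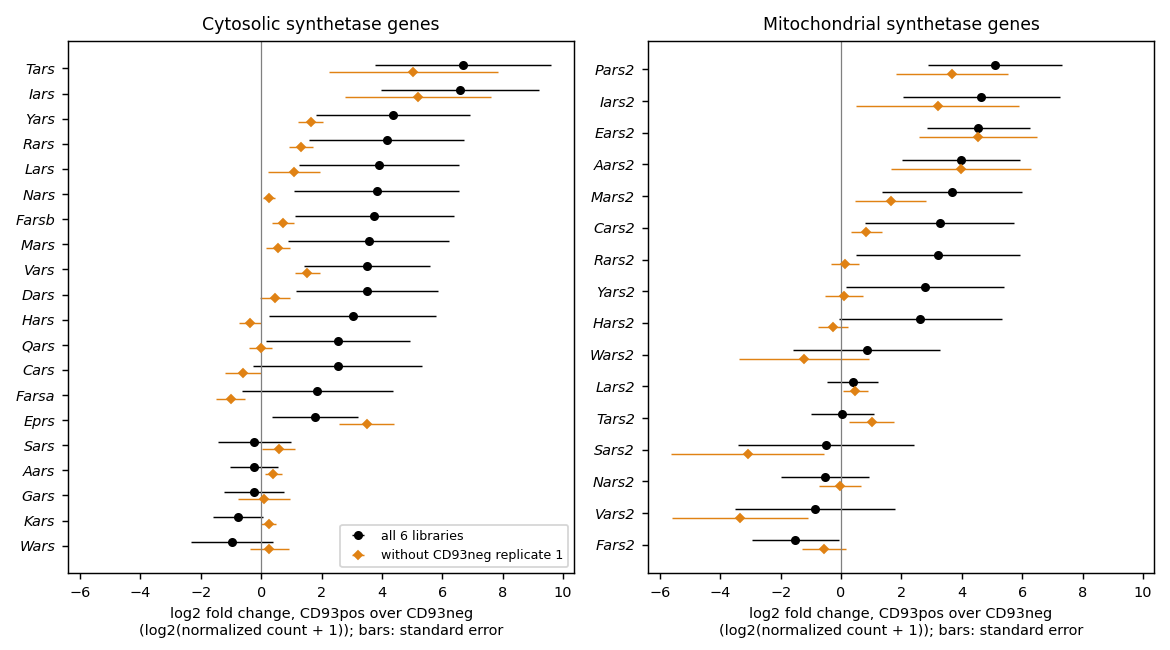
Log2 fold change of each synthetase gene, CD93pos over CD93neg, with its standard error from limma, for all 6 libraries (black) and without CD93neg replicate 1 (orange). Most black points of the cytosolic genes lie to the right of the orange ones, and their median is 3.26 against 0.51.

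In 7 of the 36 genes every CD93pos library lay above every CD93neg library, beside 18.3% of all tested genes. They were Farsb, Iars, Rars, Vars and Yars of the cytosol and Cars2 and Ears2 of the mitochondrion. Ears2 is among them only through 2 reads in CD93pos replicate 2, below the floor of 3 reads. The reverse order was found for 0 of the 36 and for 1.92% of all genes. Against CD93neg replicates 2 and 3 alone, 9 genes lay higher in every CD93pos library (21.8% of all genes), with Aars and Eprs added. Farsa, the catalytic subunit of phenylalanyl-tRNA synthetase, and Vars2 lay lower in every CD93pos library, 2 of 36 beside 13.8% of all genes.

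Among the cytosolic enzymes, those for isoleucine, threonine and tyrosine had the smallest p-values with a higher level in CD93pos. Iars, the isoleucyl-tRNA synthetase of the complex (chromosome 13, 49682100 to 49734267; all positions are on GRCm38), had 2194, 930 and 654 reads in CD93pos replicates 1, 2 and 3 against 0, 0 and 211 in the CD93neg replicates, in the same order. The groups did not overlap. This gave a log2 fold change of 6.60 ± 2.61 (estimate and SE by limma, adjusted p = 0.349), and 5.20 ± 2.42 without CD93neg replicate 1. The count tests gave smaller values with all libraries, 2.70 by DESeq2 and 2.75 by edgeR. A similar gene model, Gm4849, matched Iars at 96.0% over 1656 bases but had 2 reads in all libraries together.

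Tars, the threonyl-tRNA synthetase (chromosome 15, 11382301 to 11399665), had 2399, 988 and 1925 reads in CD93pos against 0, 0 and 596 in CD93neg. Scaled to depth the single covered CD93neg library lay inside the CD93pos range, and the other 2 were unread. Between the groups the log2 fold change was 6.69 ± 2.92 (limma adjusted p = 0.416), and 5.04 ± 2.78 without CD93neg replicate 1. With all libraries it was only 1.72 by DESeq2 and 1.79 by edgeR. Without CD93neg replicate 3, the only CD93neg library with reads of either gene, limma called Iars and Tars (both with an adjusted p of 0.0129) and the mitochondrial Iars2 (0.0204), 3 of 36 beside 15.9% of all genes.

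Yars, the tyrosyl-tRNA synthetase (chromosome 4, 129189760 to 129219607), had 1598, 1574 and 1306 reads in CD93pos against 0, 383 and 147 in CD93neg. All CD93pos libraries lay above both covered CD93neg libraries. CD93pos over CD93neg, the log2 fold change was 4.36 ± 2.54 (limma adjusted p = 0.509), and 1.64 ± 0.42 without CD93neg replicate 1 (adjusted p = 0.138). With all libraries DESeq2 gave 2.23 and edgeR 2.30.

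The promoters of these 3 genes share a short motif, shown here because Atf4 is known to bind C/EBP-ATF response elements of this form in synthetase genes. TGATGNAA was searched on both strands from 250 bases before to 50 bases after each RefSeq start (GRCm38.p6). It was found in 5 of the 13 cytosolic genes with a window, in 0 of the 14 mitochondrial ones and in 4.51% of 27025 genes. Each sequence is written 5′ to 3′ on the gene's strand, with the match in capitals, so that a match on the opposite strand begins with TT.
Iars, chr13:49682129-49682152: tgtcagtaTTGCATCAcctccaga
Tars, chr15:11399658-11399681: gagtcccgTTGCATCAgctggtta
Yars, chr4:129189898-129189921: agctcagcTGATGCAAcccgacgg
Gars, chr6:55037963-55037986: ctgcgctaTTTCATCAtgcaccgg
Aars, chr8:111033722-111033745: cttgagcaTTGCATCAgccgagcc
Aars, chr8:111033843-111033866: gggtcactTTTCATCAgagcgctc
The match in Tars begins 15 bases before the start and that in Gars 30 before, while those in Iars and Yars begin 7 and 3 bases after it. Aars has a match beginning 112 bases before and another 9 bases after. Among the 25 amino acid response genes with a window 5 held the motif, and the window of Trib3, a pseudokinase gene induced by Atf4, reads as follows.
Trib3, chr2:152344031-152344054: gctcaggtTTACATCAgccgggcg
For the 5 synthetase genes with the motif the log2 fold changes were 6.60, 6.69 and 4.36 for Iars, Tars and Yars, and -0.24 for both Aars and Gars. Without CD93neg replicate 1 all 5 were positive, at 5.20, 5.04, 1.64, 0.40 and 0.09 in that order. DESeq2 with all libraries gave 2.70, 1.72, 2.23, -0.53 and -0.34 in that order. For the response genes with the motif, the authors' DESeq2 log2 fold changes were -2.93 for Trib3, -2.48 for Nupr1 and -23.2 for Slc7a11. They were 0.64 for Asns and 3.17 for Chac1. None of these had an adjusted p under 0.05, and Slc7a11 and Chac1 had no adjusted p. Slc7a11 had no p-value at all, so its -23.2 is not read as a measured difference. By limma the lowest log2 fold change among the 27 tested amino acid response genes was -2.52. A match describes letters in a window and does not show binding.

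The cytosolic genes with the highest mean level per kilobase over all 6 libraries were Dars, Kars and Eprs. CD93neg replicate 1 bears on this order. In CD93pos alone Dars ranked 1, Nars 2, Kars 3 and Eprs 4. Levels are compared between genes only as CPM per kilobase of the principal transcript. Dars, the aspartyl-tRNA synthetase of the complex (chromosome 1, 128363707 to 128417368), had 4801, 2161 and 4323 reads in CD93pos against 1, 981 and 1688 in CD93neg. Its level per kilobase in CD93pos was the highest of the 36, 227 ± 53 (SD, n = 3). The log2 fold change was 3.50 ± 2.36 (limma adjusted p = 0.568), and 0.46 without CD93neg replicate 1, which held a single read.

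Eprs, which carries glutamyl- and prolyl-tRNA synthetase in 1 chain (chromosome 1, 185363044 to 185428360), had 5630, 3569 and 6698 reads in CD93pos against 5235, 99 and 512 in CD93neg. That is 592, 616 and 936 CPM against 1848, 21.5 and 170. CD93neg replicate 1 was the highest of all libraries and the other CD93neg libraries were the lowest. This gave a log2 fold change of 1.79 ± 1.43 (limma adjusted p = 0.612), and 3.49 ± 0.90 without CD93neg replicate 1 (adjusted p = 0.142). DESeq2 gave -0.13.

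Kars, the lysyl-tRNA synthetase of the complex (chromosome 8, 111993443 to 112011323), had 2705, 1441 and 2659 reads in CD93pos against 5018, 1103 and 760 in CD93neg. CD93neg replicate 1, at 1771 CPM, was again far above the other 5 libraries, which lay between 239 and 372. Between the groups the log2 fold change was -0.77 ± 0.83 (limma adjusted p = 0.649) and turned to 0.24 without that library. Wars, the tryptophanyl-tRNA synthetase (chromosome 12, 108860030 to 108894174), was also highest in CD93neg replicate 1 once scaled to depth, with 1361, 250 and 1031 reads in CD93pos against 2528, 364 and 234 in CD93neg. CD93pos over CD93neg, the log2 fold change was -0.96 ± 1.36 (limma adjusted p = 0.713), and 0.26 without CD93neg replicate 1. Aars, the alanyl-tRNA synthetase (chromosome 8, 111033144 to 111057664), had 2419, 987 and 1614 reads in CD93pos against 1499, 736 and 475 in CD93neg. The log2 fold change was -0.24 ± 0.80 (limma adjusted p = 0.875), and 0.40 without that library.

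The other 12 cytosolic genes had log2 fold changes between -0.24 and 4.15, of which Gars and Sars had negative ones. Their mean levels per kilobase in CD93pos ranged from 33.2 for Sars, the seryl-tRNA synthetase, to 165 for Nars, the asparaginyl enzyme. The subunits of phenylalanyl-tRNA synthetase, which work as a tetramer of Farsa and Farsb, had different orders of the libraries. Farsb had 1411, 1159 and 1822 reads in CD93pos against 0, 489 and 380 in CD93neg, without overlap. Farsa had 1758, 420 and 1013 against 1, 935 and 893. Without CD93neg replicate 1 the log2 fold change was 0.73 ± 0.36 for Farsb and -1.02 ± 0.48 for Farsa (limma adjusted p = 0.385 and 0.369). A difference between the subunits was not tested.

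Among the mitochondrial enzymes Ears2 and Aars2 had no read in any CD93neg library, 2 of 36 beside 6.68% of all tested genes, and 0 of 36 lacked reads throughout CD93pos, beside 1.27%. Testing required a mean normalized count of at least 10 over all libraries, which Ears2 and Aars2 reached through CD93pos alone. Likewise, every tested gene unread in a whole group passed through the other group, so these shares follow partly from that limit. Ears2, the glutamyl-tRNA synthetase (chromosome 7, 122037213 to 122067263), had 220, 2 and 77 reads in CD93pos against 0, 0 and 0 in CD93neg. It was the only one of the 36 read in every CD93pos library and in no CD93neg library, where 4.6% of all tested genes were. The 2 reads of CD93pos replicate 2 are 0.345 CPM. In the CD93neg libraries 3 reads make 0.650 to 1.06 CPM, so such a level could not be detected there. Against a limit of 3 reads for CD93neg as a whole, its pooled level in CD93pos was 46.4-fold higher. Leaving out CD93pos replicate 1 made this 21.3-fold, and leaving out CD93neg replicate 2 made it 25.9-fold. The limit does not allow for a gene missed altogether in a library, so these are not minimum differences. CD93neg replicates 1 and 2 had no read for 71.0% and 26.4% of tested genes. For Ears2 the log2 fold change was 4.54 ± 1.70 (limma adjusted p = 0.312, edgeR adjusted p = 0.407).

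DESeq2 gave Ears2 an adjusted p of 0.0397, as did the authors' deposited table. That call was kept without CD93neg replicate 1 or 3 (DESeq2 adjusted p = 0.0266 and 0.0260) and lost without CD93neg replicate 2, CD93pos replicate 2 or CD93pos replicate 3 (0.0643, 0.0778 and 0.183). Without CD93pos replicate 1 DESeq2 gave no adjusted p, and the unadjusted p was 0.0396. Without CD93pos replicate 2, which held 2 reads of Ears2, limma called Ears2 and Aars2 (adjusted p = 0.0196 and 0.0321), beside 6.56% of all genes. Ears2 shares 89 exonic bases with Ubfd1 on the opposite strand, and no strand setting is given, so reads there cannot be told apart.

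Aars2, the mitochondrial alanyl-tRNA synthetase (chromosome 17, 45506841 to 45520843), had 313, 0 and 41 reads in CD93pos against none in CD93neg. Its level was at least 54.9-fold higher in CD93pos, or 11.0-fold without CD93pos replicate 1 and 30.7-fold without CD93neg replicate 2. CD93pos replicate 2 was unread, as was every CD93neg library. Between the groups the log2 fold change was 3.96 ± 1.96 (limma adjusted p = 0.453; DESeq2 adjusted p = 0.0683).

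Pars2, the mitochondrial prolyl-tRNA synthetase (chromosome 4, 106651069 to 106655282), had 278, 525 and 464 reads in CD93pos against 0, 155 and 1 in CD93neg. CD93neg replicate 2 lay inside the CD93pos range once scaled to depth. CD93pos over CD93neg, the log2 fold change was 5.10 ± 2.22 (limma adjusted p = 0.415), and 3.67 ± 1.86 without CD93neg replicate 1.

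Tars2, the mitochondrial threonyl-tRNA synthetase (chromosome 3, 95739976 to 95760206), had the highest level per kilobase of the mitochondrial enzymes. It had 1842, 1993 and 1860 reads in CD93pos against 2370, 267 and 818 in CD93neg. CD93neg replicate 1 was the highest library at 837 CPM and CD93neg replicate 2 the lowest at 57.9. The log2 fold change was 0.04 ± 1.04 (limma adjusted p = 0.985), and 1.01 without CD93neg replicate 1. Rars2, the mitochondrial arginyl-tRNA synthetase (chromosome 4, 34614957 to 34660167), had 1386, 547 and 1822 reads in CD93pos against 0, 700 and 366 in CD93neg. This gave a log2 fold change of 3.22 ± 2.71 (limma adjusted p = 0.622), and 0.13 without CD93neg replicate 1.

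Fars2, the mitochondrial phenylalanyl-tRNA synthetase, which works as a single chain (chromosome 13, 36117412 to 36726280), was even across CD93pos and uneven across CD93neg. It had 550, 339 and 379 reads in CD93pos against 1475, 821 and 113 in CD93neg. In CPM that is 53.0 to 58.5 in CD93pos against 521, 178 and 37.6 in CD93neg. Between the groups the log2 fold change was -1.51 ± 1.44 (limma adjusted p = 0.627), and -0.57 without CD93neg replicate 1. Nars2, the asparaginyl enzyme (chromosome 7, 96951505 to 97064758), had 660, 393 and 376 reads in CD93pos against 428, 155 and 358 in CD93neg, and the groups overlapped. CD93pos over CD93neg, the log2 fold change was -0.52 ± 1.45 (limma adjusted p = 0.852), and -0.04 without CD93neg replicate 1.

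Vars2, the valyl enzyme (chromosome 17, 35655634 to 35667592), had 254, 0 and 67 reads in CD93pos against 0, 229 and 87 in CD93neg. One library of each group was unread, and its direction changes with the library left out. The log2 fold change was -0.87 ± 2.65 (limma adjusted p = 0.866), and -3.35 without CD93neg replicate 1. The other 8 mitochondrial genes had log2 fold changes between -0.49 and 4.64. Lars2, the leucyl enzyme, was covered in all 6 libraries, with 1847, 1113 and 1549 reads in CD93pos against 422, 454 and 608 in CD93neg, and a log2 fold change of 0.39 ± 0.85 (limma adjusted p = 0.811).

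Several other members also overlap a gene on the opposite strand. Iars2 shares 2034 exonic bases with Rab3gap2, Fars2 501 with Nrn1 and 115 with Lyrm4, Vars2 465 with Gm20483, Cars2 422 with Naxd, Nars2 284 with C230038L03Rik, Farsb 248 with Sgpp2, Hars 195 with Hars2, and Mars 68 with Ddit3. Nrn1, Gm20483, C230038L03Rik and Sgpp2 had 0 reads in all libraries together. Rab3gap2 had 873, Naxd 2961, Ddit3 1468 and Lyrm4 470, and in shared bases their reads cannot be told apart from those of Iars2, Cars2, Mars and Fars2, nor those of Hars from Hars2. Aars shares 1326 exonic bases with Exosc6 on its own strand. Exosc6 has no entry of its own in the expression table, so its reads in those bases could have been counted for Aars, which was not tested.

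Summed over genes, cytosolic synthetase reads amounted to 4658, 4296 and 5290 CPM in CD93pos against 5689, 2732 and 3483 in CD93neg. The means were 4748 ± 503 and 3968 ± 1537 (SD, n = 3 each), a ratio of 1.20, or 1.53 without CD93neg replicate 1. CD93neg replicate 1 was the highest of the 6 libraries although it held reads for few of these genes. Eprs, Kars and Wars made up 79.3% of its cytosolic synthetase reads, while the 3 leading genes made up 31.8% to 38.3% in the other libraries. Mitochondrial synthetase reads amounted to 1229, 1117 and 1268 CPM in CD93pos against 1657, 858 and 1227 in CD93neg. The means were 1204 ± 78.6 and 1248 ± 400, a ratio of 0.965, or 1.15 without CD93neg replicate 1.

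Mitochondrial enzymes took a smaller share of all synthetase reads in CD93pos, 20.9%, 20.6% and 19.3%, than in CD93neg, 22.6%, 23.9% and 26.1%. The means were 20.3% ± 0.83 and 24.2% ± 1.76 (SD, n = 3 each), and the groups did not overlap. This is a description over a chosen set and carries no test. With each gene left out in turn the groups stayed apart for 32 of 36 genes, the exceptions being Fars2, Tars2, Dars and Nars. In CD93neg replicate 1 the share rested on Tars2, Fars2 and Nars2, which held 91.0% of its mitochondrial synthetase reads. In CD93neg replicates 2 and 3 it was measured beside the neutrophil and B lineage reads given above, whose part was not tested.

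Cytosolic class I enzymes together had more reads per total in every CD93pos library than in any CD93neg library. The 9 genes, for cysteine, isoleucine, leucine, methionine, glutamine, arginine, valine, tryptophan and tyrosine, summed to 1543, 1564 and 1306 CPM in CD93pos against 894, 892 and 758 in CD93neg. The ratio of means was 1.73, and 1.65 to 1.83 with each library left out. In CD93neg replicate 1 nearly all of the sum, 892 CPM, was Wars. The 10 class II genes summed to 2523, 2116 and 3048 CPM in CD93pos against 2947, 1819 and 2554 in CD93neg, a ratio of 1.05, and the groups overlapped. Eprs, which has an enzyme of each class, is in neither sum. Whether the classes differ from each other was not tested. The mitochondrial classes overlapped between the groups, with a ratio of 1.64 for the 9 class I genes and 0.654 for the 7 class II genes. Without CD93neg replicate 1 these were 1.25 and 1.06.

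**Figure D3:**
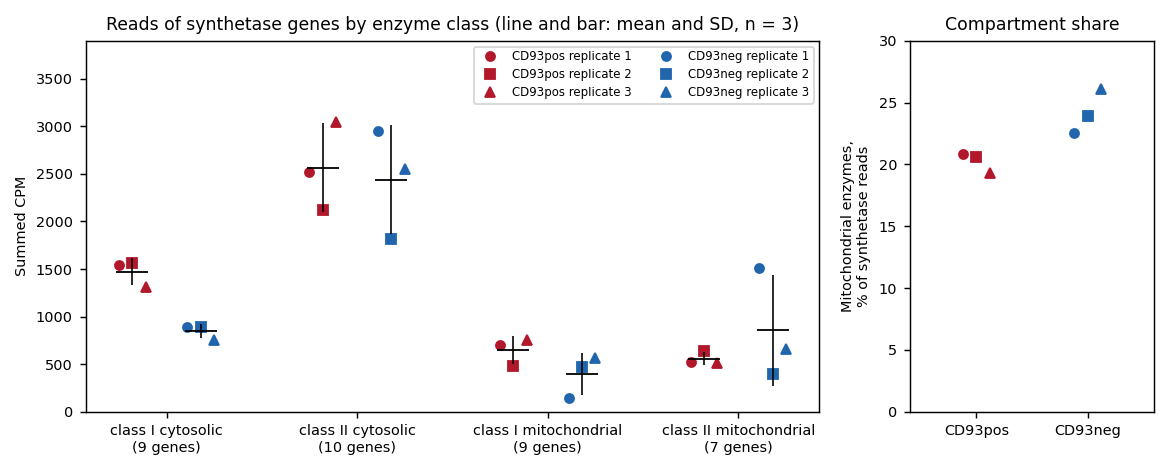
Left, summed CPM of synthetase genes by enzyme class and compartment in each library (red CD93pos, blue CD93neg), with the group mean and SD; right, mitochondrial enzymes as a percent of all synthetase reads. The cytosolic class I sums, 1306 to 1564 in CD93pos and 758 to 894 in CD93neg, and the shares do not overlap, and the other sums do.

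The 8 genes of the multisynthetase complex, Eprs, Iars, Lars, Mars, Qars, Rars, Kars and Dars, summed to 2269, 2157 and 2674 CPM in CD93pos against 3620, 981 and 1412 in CD93neg. The ratio was 1.18, and 1.98 without CD93neg replicate 1, where Eprs and Kars supplied almost all reads of the complex. The 12 cytosolic enzymes outside it summed to 2389, 2138 and 2616 CPM in CD93pos against 2068, 1751 and 2071 in CD93neg, a ratio of 1.21, and 1.25 without that library.

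The cytosolic enzyme had the higher level per kilobase for most amino acids. For 13 amino acids 1 cytosolic and 1 mitochondrial gene could be compared, and the cytosolic one was higher in 10, 12 and 9 pairs in the CD93pos libraries and in 9 and 8 pairs in CD93neg replicates 2 and 3. For CD93neg replicate 1 it was higher in 4 pairs and 6 pairs were unread in both. In CD93pos the largest ratios of group means were 16.5 for Vars over Vars2, 15.2 for Wars over Wars2 and 13.5 for Mars over Mars2. Threonine went the other way. Tars2 lay above Tars in all 6 libraries, at 111 ± 31 against 57.6 ± 13 in CD93pos. That order depends on the transcript length used, and with the union of all exons Tars was higher in 2 of 3 CD93pos libraries. For tyrosine, Yars was above Yars2 in all 3 CD93pos libraries, at means of 71.3 and 42.8. Yars2 was above Yars in CD93neg replicates 2 and 3, at 50.0 and 25.8 against 28.5 and 16.8. The change of order between the groups was not tested.

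**Figure D4:**
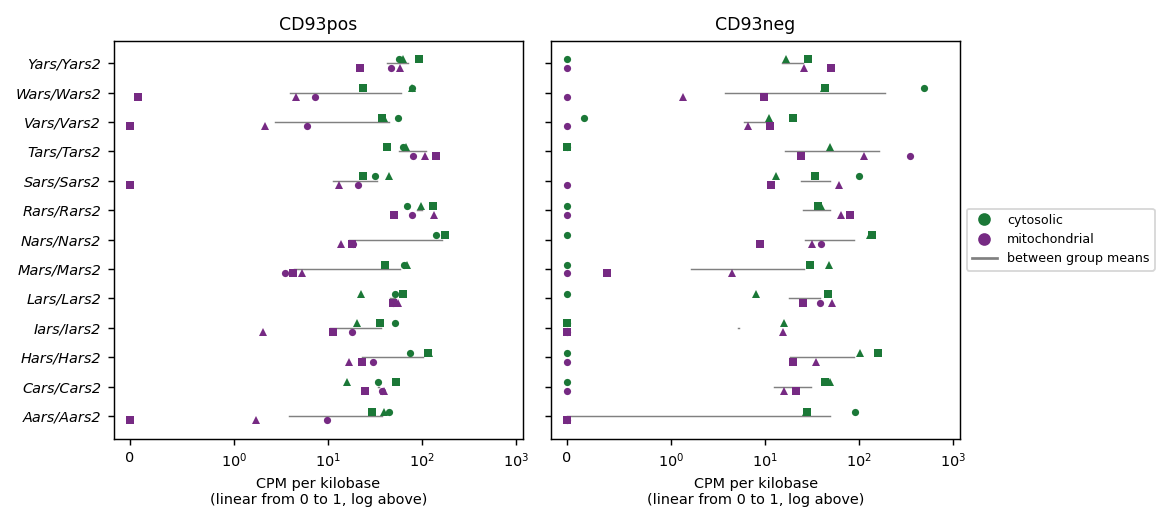
Level of the cytosolic (green) and mitochondrial (purple) synthetase gene for each of 13 amino acids, in CPM per kilobase on an axis linear from 0 to 1 and logarithmic above, with circle, square and triangle for replicates 1, 2 and 3 and a line between the group means. The green mean lies to the right for 11 of 13 pairs in CD93pos and 9 of 13 in CD93neg.

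Ears2 works in sequence with an amidotransferase, whose genes are described here for that reason. Mitochondria lack a glutaminyl-tRNA synthetase of their own: Ears2 charges the glutamine tRNA with glutamate, and the amidotransferase of Qrsl1, Gatb and Gatc converts it to glutamine. Qrsl1, the catalytic subunit (chromosome 10, 43874188 to 43901745), had 379, 207 and 205 reads in CD93pos against 0, 0 and 0 in CD93neg. Gatb (chromosome 3, 85574119 to 85655622) had 475, 289 and 121 against 0, 0 and 0. Both were read in every CD93pos library and in no CD93neg library, as were 4.6% of all tested genes. Like Ears2, they reached the mean count required for testing through CD93pos alone. Gatc (chromosome 5, 115333239 to 115341178) had 566, 285 and 438 reads in CD93pos against 0, 0 and 171 in CD93neg, where replicate 3 lay inside the CD93pos range.

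Against a limit of 3 reads for CD93neg as a whole, pooled levels in CD93pos were 123-fold higher for Qrsl1 and 137-fold for Gatb. Without CD93neg replicate 2 these were 68.5-fold and 76.7-fold. As for Ears2, the limit does not allow for a gene missed altogether in a library. The log2 fold changes of Qrsl1 and Gatb were 7.27 ± 1.25 and 7.28 ± 1.30 (limma adjusted p = 0.0558 for both). DESeq2 called both (adjusted p = 0.0038 and 0.00364), as it did 5.58% of all genes in that direction, and did not call Gatc. Without CD93neg replicate 1 DESeq2 gave them adjusted p-values of 6.46e-07 and 5.38e-06. Without CD93pos replicate 1 both missed the threshold, at a DESeq2 adjusted p of 0.0512. Without CD93pos replicate 3 Qrsl1 missed it and Gatb did not (DESeq2 adjusted p = 0.0509 and 0.0381).

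**Figure D5:**
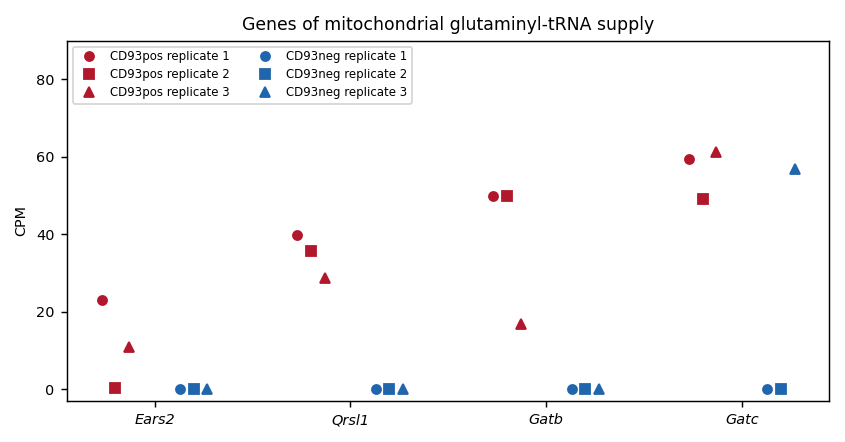
CPM of Ears2 and of the amidotransferase genes Qrsl1, Gatb and Gatc in each library (red CD93pos, blue CD93neg; circle, square and triangle for replicates 1, 2 and 3). Ears2, Qrsl1 and Gatb lie at 0 in all CD93neg libraries, and Gatc has 56.9 CPM in CD93neg replicate 3.

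Genes around the synthetases were taken from 7 lists of 68 genes, of which 67 were tested. limma called 0, while 6 higher and 0 lower had an unadjusted p under 0.05, beside 11.8% and 0.381% of all tested genes. DESeq2 called 5 higher and 0 lower, beside 5.58% and 0.389%. The median log2 fold change was 2.65, and 0.15 without CD93neg replicate 1, beside 2.36 and 0.43 for all tested genes. Besides Qrsl1 and Gatb, DESeq2 called Elac1, which trims the 3′ end of tRNA precursors, Mtrf1, a mitochondrial release factor, and Slc7a5, the light chain of a transporter of large neutral amino acids. None of these had a read in CD93neg, so each reached the mean count required for testing through CD93pos alone. Mtrf1 had 325, 202 and 356 reads in CD93pos and Slc7a5 had 459, 104 and 264.

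The scaffold genes of the complex gave no call. Aimp2 had 863, 557 and 943 reads in CD93pos against 1, 209 and 121 in CD93neg, and its groups did not overlap. Aimp1 had 812, 119 and 577 reads against 0, 697 and 407. This gave a log2 fold change of 1.63 ± 2.85 with all libraries and -1.48 without CD93neg replicate 1 (limma adjusted p = 0.762 with all). Eef1e1 had 689, 177 and 694 reads against 0, 281 and 182. Elongation factors, which deliver charged tRNA to the ribosome and move it along, had reads in CD93neg replicate 1 for 5 of 6 genes. Eef2 had 9977, 7681 and 10476 reads in CD93pos against 1922, 4701 and 3801 in CD93neg, with a log2 fold change of 0.32 ± 0.23 (limma adjusted p = 0.597). All 10 mitochondrial translation factors had positive log2 fold changes with all libraries (median 3.16) and 8 of 10 without CD93neg replicate 1 (median 0.44).

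The amino acid response genes differed little as a sum, at 3322, 2972 and 3303 CPM in CD93pos against 3262, 2818 and 3534 in CD93neg, a ratio of 0.998. Of 27 tested, 23 had a positive log2 fold change (median 2.24), and 13 without CD93neg replicate 1 (median -0.05). Eif2ak4, the sensor of uncharged tRNA, had 408, 373 and 138 reads in CD93pos against 3, 1 and 82 in CD93neg, and CD93neg replicate 3 lay inside the CD93pos range. Between the groups the log2 fold change was 3.84 ± 2.04 (limma adjusted p = 0.474). Atf4 had 711, 379 and 699 reads in CD93pos against 0, 668 and 117 in CD93neg, with CD93neg replicate 2 the highest library once scaled to depth. CD93pos over CD93neg, the log2 fold change was 2.83 ± 2.68 (limma adjusted p = 0.625), and 0.03 without CD93neg replicate 1. Psat1, a serine synthesis enzyme, had 2410, 1695 and 1979 reads in CD93pos against 0, 0 and 552 in CD93neg, without overlap.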

How the data were processed

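6 libraries were compared, 3 CD93pos and 3 CD93neg. Reads of 50 bases from both ends were processed with STAR, featureCounts of Subread 1.5.0-p1 and DESeq2 1.26 on GRCm38, per the submitters' processing notes. The deposited table holds gene counts the authors divided by a size factor per library, a normalized signal; the strand setting is not given in the sources used here. Whole reads were recovered from the deposited signal by its smallest step, and 100% of values came out whole within 0.001 reads. The authors' deposited comparison table gives log2 fold changes, DESeq2 p-values and a score (the Wald statistic) per gene.

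limma 3.58.1 (trend, two-sided, Benjamini-Hochberg, threshold 0.05) was run on log2(normalized count + 1) of the 11805 genes whose mean normalized count reached 10. edgeR 4.0.16 and DESeq2 1.42.0 on the recovered reads, other scalings, pseudocounts and filters, thinning and each library left out were alternatives. Levels per kilobase use the GENCODE M21 principal transcript, and 47224 of 47937 gene IDs were found there. Motifs were searched in RefSeq promoter windows, matched for 13 cytosolic and 14 mitochondrial genes. Reads are printed for the 3 members of each compartment highest per kilobase, the 3 with the smallest p in each direction, members unread in a group and members called by any tool, and for up to 3 genes of each pathway list with Eif2ak4 and Atf4. Farsa, Farsb and Lars2 were added after their values were seen. On simulated counts with a biological coefficient of variation of 0.3, limma found 100% of the genes given a log2 difference of 3 or 6. At 1.64, the value estimated from these libraries, it found 0% and 15%. False calls were 7 at 0.3 and 0 at 1.64. The simulation gave every library the same spread and held none like CD93neg replicate 1, with most tested genes unread. Members and lists were chosen with earlier results of these data known.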

Additional observations from a re-analysis of the deposited data

How the results depend on the processing

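limma called 0 genes in all, and DESeq2 called 705, a pseudocount of 0.5 206, and leaving out 1 library 0 to 1880. Synthetase calls were 0, or 1 by DESeq2 and 0 to 3 with a library left out. Calls in the pathway lists were 0, or 5 by DESeq2, 5 at a pseudocount of 0.5 and 0 to 12 with a library left out. Same-numbered libraries deviated together at correlations of only 0.037, 0.019 and 0.061. Whether replicate numbers pair the libraries is not stated in the labels, and these correlations cannot settle it. A replicate block gave 24 calls over all genes, 0 among the synthetase genes and 1 in the pathway lists, and each library correlated best with its own number. Of 270 alternative values for the 16 named synthetase genes, 253 kept direction and side of the threshold, 5 passed the threshold and 12 turned. The log2 fold change of Aars turned to 0.25 with quantile normalization and 0.40 without CD93neg replicate 1. Eprs turned to -0.13 in DESeq2, and Kars and Wars to 0.24 and 0.26 without CD93neg replicate 1. Tars2 turned to -0.71 in DESeq2, -0.32 in edgeR, -1.03 without CD93neg replicate 2 and -0.19 without CD93pos replicate 2. Vars2 turned to 0.54, 0.20 and 1.18 without CD93neg replicate 2, CD93neg replicate 3 and CD93pos replicate 2. With each library left out Aars ranged from -0.58 to 0.40, Kars from -1.31 to 0.24, Wars from -1.60 to 0.26, Tars2 from -1.03 to 1.01 and Vars2 from -3.35 to 1.18. The cause was not tested. Quantile normalization moved the median log2 fold change of all genes from 2.36 to 0.02 and the split at an unadjusted p under 0.05 from 1391 higher and 45 lower to 689 and 916. It gave 1.88 for the cytosolic and 0.83 for the mitochondrial median. With a library left out these medians ranged from 0.51 to 4.66 and from 0.30 to 3.93. Among alternatives added after seeing the data, TMM factors moved the cytosolic class I ratio from 1.73 to 1.92. The difference in mitochondrial share, -3.90 percentage points, became -2.45 without Tars2 and -1.18 without Fars2. A count of 3 reads corresponds to 0.315 to 1.06 CPM, so levels below that were not detectable.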
